A study of Mus musculus with 4 samples.

Results

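Immediate early and acute stress genes were followed as a set of 35 genes, taken by symbol from a given list of names, in single-cell transcriptomes of the prepubertal mouse ovary. All 35 symbols were found, each once, among the 32285 genes of the count files. The list holds AP-1 subunits and their partners (Fos, Fosb, Fosl1, Fosl2, Jun, Junb, Jund, Atf3, Maff), the zinc finger factors Egr1, Egr2, Egr3, Klf2, Klf4 and Klf6, and the orphan nuclear receptors Nr4a1, Nr4a2 and Nr4a3. It also holds feedback, decay and growth arrest genes (Dusp1, Dusp2, Dusp6, Zfp36, Zfp36l1, Nfkbia, Nfkbiz, Socs3, Ier2, Ier3, Ier5, Btg1, Btg2, Gadd45b, Gadd45g, Per1) and Myc.

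Immediate early genes are transcribed within minutes of a stimulus from factors already present in the cell, such as serum response factor, CREB and NF-kappaB, so their induction needs no new protein synthesis. Their mRNAs decay fast, and several of their products, among them the phosphatase Dusp1 and the mRNA decay factor Zfp36, shut the response down again. In the ovary, Egr1, Nr4a1 and the Fos family are known targets of the gonadotropin surge. The same genes are also known to be switched on when tissue is digested at body temperature for single-cell work.

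There were 4 libraries, 1 per group, and each pooled 1 ovary from each of 5 mice. Treatment started at postnatal day 25. The control group received PBS/saline. The doxorubicin group received doxorubicin, an anthracycline that damages DNA, at 3 mg/kg in 2 weekly doses. The doxorubicin+AMH group received the same doses with recombinant human anti-Müllerian hormone (AMH), a granulosa cell hormone of the TGF-beta family, at 0.75 mg/kg, and the AMH group received 0.75 mg/kg of AMH alone. Ovaries were taken 4 hours after the second doxorubicin dose, digested with papain and collagenase A for 30 minutes at 37 °C, dissociated mechanically and passed through a 70 µm filter. The question put by the series is whether AMH protects the ovary from doxorubicin. Each group is 1 library from 1 digestion, so every difference between groups below compares libraries, and effects of handling and of treatment cannot be told apart. With 1 library per group no comparison of groups carries a test, no test was made across pairs of groups (both AMH libraries against both others, for example), and no p-value is given.

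The files held 7141 to 9478 cells and 138647495 to 178279122 UMIs (molecular tags, each counting 1 captured 3′ transcript end) per library, with median depths of 9834.5 to 13575 UMIs per cell. After filtering, 28440 cells fell into 33 clusters, of which 29 were named from markers in 12 classes and 4 stayed unnamed. The 35 genes and the related lists took no part in the clustering. Any 2 libraries shared 11 to 24 barcodes by name. Levels are CPM, the UMIs of a gene per 1000000 UMIs summed over the cells of a class in a library. Since a UMI counts a transcript end whatever the length of the gene, CPM were compared between genes without dividing by length. Intervals are 95% and cover counting error only. Ratios were read for genes whose level averaged 20 CPM or more in that class, and a ratio of at least 1.5 in either direction is called past 1.5-fold.

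The promoters of the genes were read from the RefSeq table of the build GRCm38.p6, which held 29 of the 35 genes with 36 start sites. Fosl1, Egr1, Egr3, Ier2, Myc and Nfkbiz were not matched. The 250 bases upstream of 6 start sites are shown: Fos and Junb as abundant AP-1 members, and Nr4a1, Nr4a2, Btg2 and Maff as members past 1.5-fold in theca-like cells below. No exon of the GENCODE vM21 annotation overlaps these windows. Those of Nr4a1 and Maff are intronic, inside the annotated gene and before an inner start site, and the other 4 lie outside annotated genes. The positions, 5′ to 3′ on the strand of the gene, are Fos at chr12:85473640-85473889, plus strand, Junb at chr8:84978749-84978998, minus strand, Nr4a1 at chr15:101266596-101266845, plus strand, Nr4a2 at chr2:57124004-57124253, minus strand, Btg2 at chr1:134079156-134079405, minus strand, and Maff at chr15:79347270-79347519, plus strand. Capitals mark TGACG (the CREB half-site) or its reverse complement, the full CREB site TGACGTCA, and TATAAA or its reverse complement.
Fos: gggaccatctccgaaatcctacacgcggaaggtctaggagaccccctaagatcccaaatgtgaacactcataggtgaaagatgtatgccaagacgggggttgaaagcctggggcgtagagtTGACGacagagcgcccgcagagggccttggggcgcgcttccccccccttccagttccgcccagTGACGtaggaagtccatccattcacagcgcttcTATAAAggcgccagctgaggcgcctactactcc
Junb: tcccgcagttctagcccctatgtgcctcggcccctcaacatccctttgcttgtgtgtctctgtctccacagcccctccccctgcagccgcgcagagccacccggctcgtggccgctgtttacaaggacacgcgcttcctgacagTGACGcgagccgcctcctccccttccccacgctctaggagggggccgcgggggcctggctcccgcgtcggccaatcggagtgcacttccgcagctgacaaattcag
Nr4a1: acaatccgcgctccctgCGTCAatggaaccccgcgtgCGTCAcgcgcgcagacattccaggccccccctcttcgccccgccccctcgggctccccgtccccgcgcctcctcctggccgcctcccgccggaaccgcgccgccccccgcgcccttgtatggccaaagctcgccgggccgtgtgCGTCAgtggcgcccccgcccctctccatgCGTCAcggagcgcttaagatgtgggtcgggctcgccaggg
Nr4a2: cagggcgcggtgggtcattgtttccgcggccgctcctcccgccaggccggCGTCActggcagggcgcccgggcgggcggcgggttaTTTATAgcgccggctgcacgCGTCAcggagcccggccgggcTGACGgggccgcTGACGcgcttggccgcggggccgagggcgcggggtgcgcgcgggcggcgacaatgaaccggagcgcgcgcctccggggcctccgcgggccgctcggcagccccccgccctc
Btg2: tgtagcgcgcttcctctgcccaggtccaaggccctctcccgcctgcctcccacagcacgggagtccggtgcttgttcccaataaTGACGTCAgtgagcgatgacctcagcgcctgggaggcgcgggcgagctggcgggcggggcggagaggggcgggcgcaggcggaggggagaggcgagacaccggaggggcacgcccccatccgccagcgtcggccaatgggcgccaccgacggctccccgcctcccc
Maff: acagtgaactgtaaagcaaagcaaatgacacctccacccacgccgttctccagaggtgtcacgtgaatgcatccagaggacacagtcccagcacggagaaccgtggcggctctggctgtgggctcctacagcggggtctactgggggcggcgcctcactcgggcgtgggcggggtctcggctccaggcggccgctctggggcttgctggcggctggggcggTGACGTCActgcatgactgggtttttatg

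In these windows TGACG begins 129 and 66 bases before the start site of Fos, and TATAAA 33 bases before it. Junb has TGACG 106 bases before its start. Nr4a1 carries TGACG on the opposite strand at 233, 213, 69 and 40 bases, and Nr4a2 on either strand at 200, 144, 123 and 111 bases. The full palindrome TGACGTCA begins 166 bases before the start of Btg2 and 29 bases before that of Maff. Searches covered both strands of 300 bases, from 250 before to 50 after each start site, and a gene with several start sites counted if any of them matched. TGACG was found in 16 of the 29 matched genes (55.2%), against 23.0% of all 27025 genes in the table. TGACGTCA, which contains TGACG, was found in 3 genes (10.3% against 2.03%), Btg2, Dusp1 and Maff. The CArG box, counted once although it can match on both strands, was found in 2 genes (6.90% against 1.81%), Egr2 and Zfp36. TATAAA was found in 8 genes (27.6% against 15.7%) and the NF-kappaB site in 8 (27.6% against 7.81%). The AP-1 motif TGANTCA was found in 1 gene, Zfp36l1 (3.45% against 8.97%). A match describes the letters of the window and does not show that a factor was bound.

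The set was present at high level in nearly every class, and its level depended more on the class than on the library. Summed over the 35 genes, stroma-like cells, the interstitial fibroblasts, held 22514 CPM in control cells, 22096 with doxorubicin, 21492 with doxorubicin+AMH and 20284 with AMH. Theca-like cells, the steroid-producing cells around follicles, held 12715 CPM in control cells, 13663 with doxorubicin, 17638 with doxorubicin+AMH and 17325 with AMH. Mural smooth muscle-like cells held 14574 CPM in control cells, 14574 with doxorubicin, 14874 with doxorubicin+AMH and 14044 with AMH. Granulosa-like cells, the somatic cells inside follicles, held 7683 CPM in control cells, 7786 with doxorubicin, 8016 with doxorubicin+AMH and 7632 with AMH. The granulosa-like sums lay below those of these 3 other classes in every library, and the stroma-like sums above them. Blood endothelial-like cells ranged from 12115 to 14290.4 CPM and macrophage-like cells from 9939 to 13563 CPM, and the mural smooth muscle-like libraries all lay above the macrophage-like ones. The blood endothelial-like range overlapped those of macrophage-like, mural and theca-like cells, and the theca-like range those of all 3, so these give no further order. Surface epithelial-like cells, with as few as 34 cells in a library, ranged from 16920.0 to 25395 CPM and overlapped the stroma-like range. Erythroid-like cells, which should make little of these transcripts, held 1294 to 2426 CPM, the level taken as that of free RNA.

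**Figure D1:**
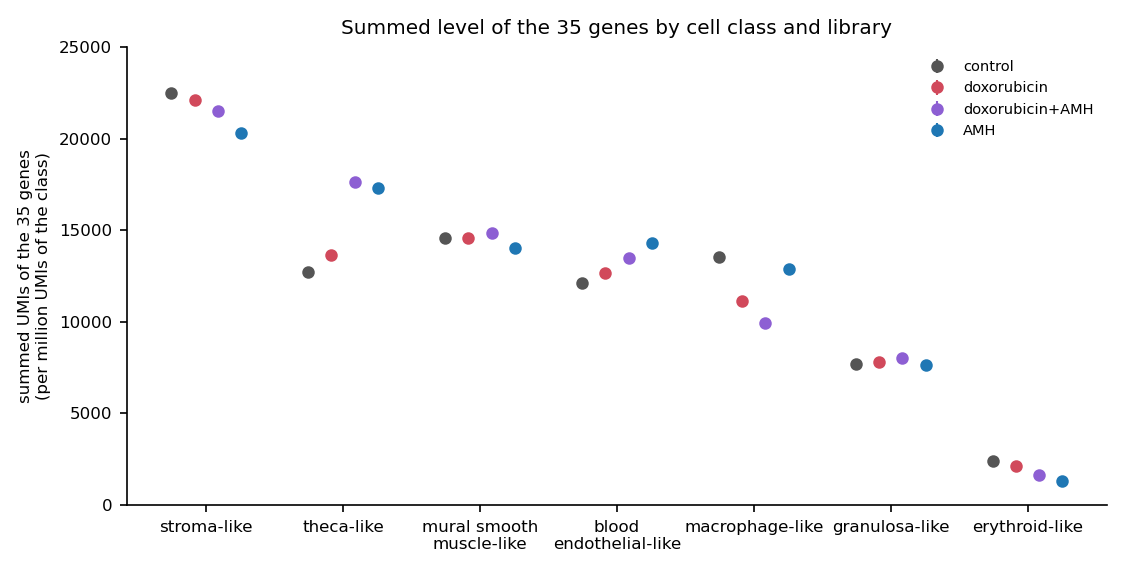
Summed level of the 35 genes in CPM (vertical axis) for each cell class (horizontal axis), with a mark for each library and exact 95% Poisson intervals for counting error. Stroma-like points lie at 20284 to 22514 CPM, granulosa-like points at 7632 to 8016 CPM, and the theca-like points separate into 2 pairs, 12715 and 13663 CPM without AMH against 17638 and 17325 CPM with it.

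The difference between stroma-like and granulosa-like cells was carried by most genes of the set. Of the 32 genes that passed the filter in this comparison, 24 were at least 1.5-fold higher in stroma-like cells in each of the 4 libraries, 75% against 15.7% of all genes tested, and none was lower in each (19% of all genes). Egr3, Nr4a3 and Per1 are among the 24 and were under 20 CPM in granulosa-like cells, so they passed the filter only through stroma-like cells and had to differ. Without the members under 20 CPM in granulosa-like cells, 21 of 29 were higher. The median ratio of the 32 was 3.00, against 0.88 over all genes. Fos, the AP-1 subunit that dimerises with Jun proteins, stood in stroma-like cells at 4243 CPM in control cells, 4143 with doxorubicin, 4331 with doxorubicin+AMH and 3842 with AMH. In granulosa-like cells Fos stood at 1556 CPM in control cells, 1550.0 with doxorubicin, 1747 with doxorubicin+AMH and 1621 with AMH, and the ratio was 2.37 to 2.73 over the libraries. Jun, its main partner, was 2.49 to 2.69 times higher in stroma-like cells, and Junb, a weaker activator, 4.42 to 5.18 times. Egr1, the first zinc finger factor of the response, was 3.34 to 3.69 times higher, and Atf3, a repressor of stress responses, 5.22 to 5.81 times. Klf4 was 5.31 to 5.67 times higher and the cytokine feedback inhibitor Socs3 9.12 to 11.13 times. The nuclear receptor Nr4a2 was 6.72 to 8.63 times higher, and its relative Nr4a3, one of the 3 that were low in granulosa-like cells, 12.56 to 17.88 times. The genes not past the ratio in every library were Fosl2, Gadd45g, Ier3, Jund, Klf6, Maff, Myc and Nfkbia, and Myc stood lower in stroma-like cells, at a ratio of 0.57 to 0.78. Stroma-like cells were the shallower class, with median depths of 7089 to 9489 UMIs per cell against 16247 to 23467.5 in granulosa-like cells, and the part of depth in these ratios was not tested beyond the matched-depth counts given further down.

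Theca-like cells exceeded granulosa-like cells in the same way, with 20 of 32 genes higher in each library (10.4% of all genes) and none lower (14.8%). Leaving out members under 20 CPM in granulosa-like cells, as above, 18 of 29 were higher. Here Fos, Fosb and Jun were not past 1.5-fold in every library, while Gadd45g and Fosl2 were. Mural smooth muscle-like cells had 19 of 32 genes higher than granulosa-like cells (15% of all genes) and none lower (17.9%). Blood endothelial-like cells had 19 of 31 higher (20.3%) and 1 lower, Myc (15.1%), and macrophage-like cells 18 of 33 higher (21.4%) and 1 lower, again Myc (25.8%). Without the members under 20 CPM in granulosa-like cells the higher ones were 17 of 29 in mural smooth muscle-like, 16 of 28 in blood endothelial-like and 15 of 29 in macrophage-like cells, and Myc was itself under 20 CPM in the latter pair of classes. These comparisons share the granulosa-like or stroma-like cells of the same libraries. Set against stroma-like cells, macrophage-like cells were higher in a few members. Atf3, the phosphatases Dusp2 and Dusp6, Ier5, Klf6 and the NF-kappaB cofactor Nfkbiz were higher in each library, 6 of 34 genes, which is under the 21.7% of all genes, and 13 were lower (22.2%). Dusp2 and Dusp6 were under 20 CPM in stroma-like cells, so only the macrophage-like cells brought them past the filter, and without them 4 of 32 were higher. Myc, among the 13 lower, was under 20 CPM in macrophage-like cells, and without it 12 of 33 were lower. In blood endothelial-like cells, Dusp6, Ier3, Nfkbia and Nfkbiz were higher than in stroma-like cells, 4 of 33 genes (17.8% of all genes), and 13 were lower (11.6%). Without members under 20 CPM on the lower side (Dusp6, and Egr2 and Maff), these were 3 of 32 and 11 of 29. Between stroma-like and theca-like cells, Ier5, Jun and Klf4 were higher in stroma-like cells in each library (3 of 32, against 13.3% of all genes) and Myc lower (9.56%).

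The classes also differed in which members were high. Among the 6 classes that reached 50 cells per library, stroma-like cells had the highest mean level of 18 of the 35 genes, and for 6 of these every library lay above every library of the other classes: Fos, Jun, Egr1, Egr2, Ier2 and Klf4. The share of all genes that lead or do not overlap in a class was not counted, so these counts describe the members alone. Macrophage-like cells led for 7 genes, 5 of them without overlap: Ier5, Atf3, Dusp1, Dusp2 and Klf6. Atf3 stood there at 1043 CPM in control cells, 813 with doxorubicin, 831 with doxorubicin+AMH and 1049 with AMH, against a highest level of 351 CPM in stroma-like cells. Dusp2, a phosphatase of immune cells, stood there at 62.3 CPM in control cells, 49.95 with doxorubicin, 58.5 with doxorubicin+AMH and 77.7 with AMH, and at 0.72 to 1.14 CPM in granulosa-like cells. Blood endothelial-like cells led for 7 genes, 1 without overlap, the antiproliferative gene Btg1 at 461 CPM in control cells, 487 with doxorubicin, 477 with doxorubicin+AMH and 507 with AMH. Klf2, a factor that blood flow induces in endothelium, stood in them at 684 CPM in control cells, 734 with doxorubicin, 642 with doxorubicin+AMH and 425 with AMH, overlapping the macrophage-like range of 424 to 509 CPM. Theca-like cells led for Myc, a growth factor target, at 70.4 CPM in control cells, 69.0 with doxorubicin, 77.8 with doxorubicin+AMH and 72.9 with AMH, without overlap, and for Fosl2 and Gadd45g with it. Granulosa-like cells led for none and were the lowest class for Atf3, Dusp1, Nr4a3 and Zfp36 among others. Fosl1 was low in all 6 classes, with its highest level, 7.25 CPM, in stroma-like cells. Classes with fewer cells had higher mean levels of some leading genes. Klf4 ranged from 1073 to 1929 CPM and Dusp2 from 153 to 235 CPM in lymphatic endothelial-like cells. Atf3 ranged from 849 to 2442 CPM in surface epithelial-like cells.

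**Figure D2:**
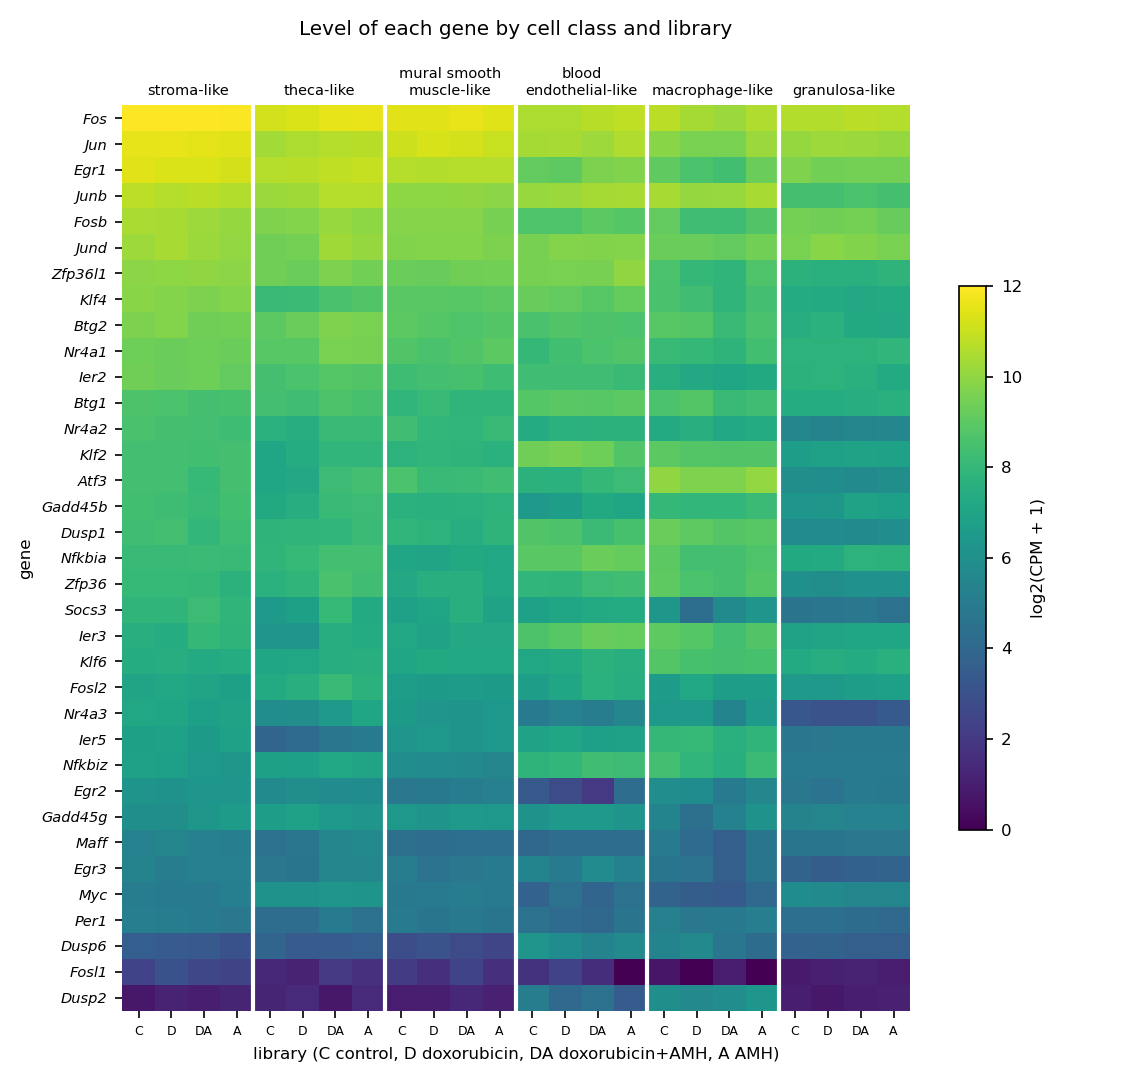
Level of each of the 35 genes (vertical axis, ordered by level in stroma-like cells) in 6 classes and the 4 libraries of each (horizontal axis), as log2(CPM + 1) from dark (low) to yellow (high). Fos, Jun and Egr1 are brightest in stroma-like cells, Fosl1 and Dusp2 are near the dark end in stroma-, theca- and granulosa-like cells, and Atf3 is brightest in macrophage-like cells, at 813 to 1049 CPM.

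Seen cell by cell, the set was on in most cells and was not the mark of a few. Each cell was thinned to 2000 UMIs so that depth was equal, which left out the shallower cells (52 to 118 granulosa-like, 42 to 52 stroma-like and 5 to 32 theca-like cells per library). At that depth the median number of the 35 genes with a UMI in a granulosa-like cell was 8 in each library, and cells with none made up 0.138% to 0.54% of the class. In stroma-like cells the median was 15 in control and 14 in each other library, and cells with at least 10 of the genes made up 85.5% of control cells, 84.8% with doxorubicin, 84.3% with doxorubicin+AMH and 84.5% with AMH. The same share in granulosa-like cells was 30.4%, 29.0%, 30.2% and 28.7% in that order. In theca-like cells it was 66.2%, 69.2%, 80.9% and 81.3%, so both AMH libraries lay above both others there. The class sits in different clusters with and without AMH, as described further down, and within clusters 10 and 15 the libraries did not part in this way: the share was 66.4%, 70.0%, 68.3% and 69.0% in cluster 10 and 69.9%, 62.4%, 69.7% and 65.5% in cluster 15. In cluster 9 it was 46.9% and 87.0% of the 32 and 23 thinned cells without AMH, and 84.7% and 84.9% with it. Fos itself was seen in 80.8% of granulosa-like control cells after thinning (exact interval 79.1 to 82.5), and in 95.2% of them before it, at a median depth of 22445 UMIs. In stroma-like control cells Fos was seen in 92.8% after thinning, and in erythroid-like control cells, the background for free RNA, in 28.3%. The median number of the genes in an erythroid-like cell was 1 to 2, at unthinned median depths of 3905 to 6553 UMIs.

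**Figure D3:**
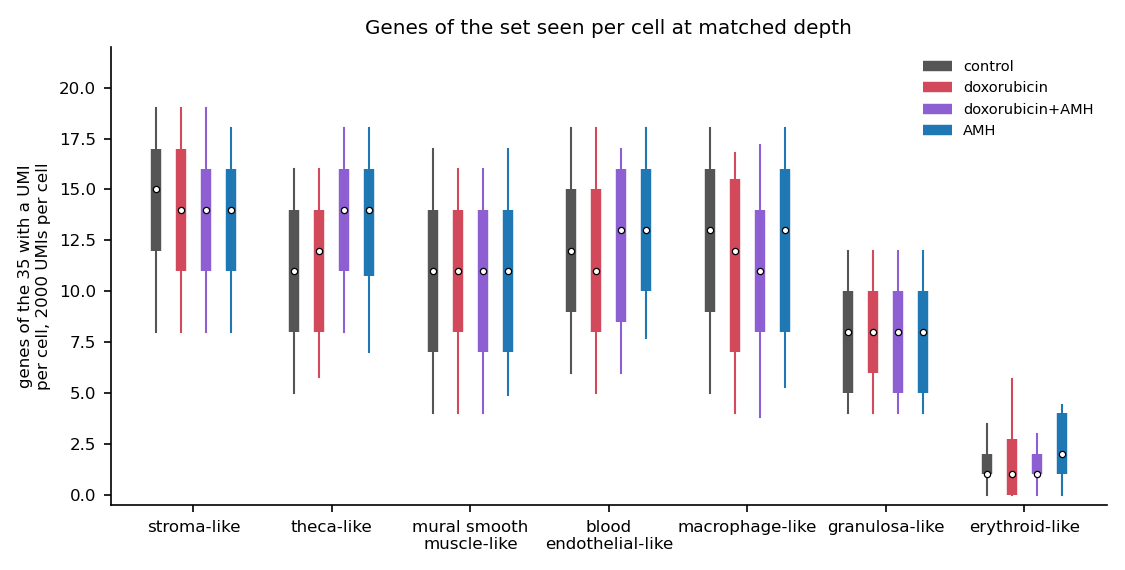
Number of the 35 genes with at least 1 UMI in a cell after thinning to 2000 UMIs (vertical axis), by class and library (horizontal axis); the point is the median cell, the thick bar runs between quartiles and the thin line from the 10th to the 90th percentile of cells. Granulosa-like medians are 8 in all 4 libraries, stroma-like medians 14 to 15, and theca-like medians 11 and 12 in control and doxorubicin against 14 and 14 in doxorubicin+AMH and AMH, where other clusters make up most of the class.

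Shares of cells with some other members differed between cells with and without a Fos UMI. Among granulosa-like control cells at equal depth, Jun was seen in 83.5% of cells with a Fos UMI and in 58.4% of cells without one. In stroma-like control cells, Junb was seen in 88.1% of cells with Fos and 55.4% of cells without, Egr1 in 96.5% and 65.5%, and Atf3 in 36.3% and 10.7%. Myc was seen in 6.2% and 3.4% of these cells, both low shares, and in the other order in granulosa-like AMH cells, at 6.38% and 7.07%. In theca-like cells of the doxorubicin library Nr4a1 was seen in 55.3% of cells with Fos and in 19.4% of cells without, and in the AMH library in 63.6% and 57.3%. A split of this kind was also present in the erythroid-like control cells taken as background, where Jun was seen in 46.2% of 13 cells with Fos and in 12.1% of 33 without, and it was not seen for Jun in granulosa-like cluster 11 of the doxorubicin library (53.7% and 55.1%). The part of free RNA in these shares was not tested. Cells of 1 library share their source, so these shares describe libraries, and a class also mixes clusters of different level.

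In granulosa-like cells no member was past 1.5-fold in any of the 4 contrasts. Of the 35 genes, 29 passed the filter. Against those 29 with none past 1.5-fold, the share of all genes was 0.0907% higher and 0.136% lower for doxorubicin over control, 0.272% and 0.635% for doxorubicin+AMH over AMH, 0.786% and 2.19% for AMH over control, and 1.13% and 2.74% for doxorubicin+AMH over doxorubicin. The first 2 contrasts share no library, and neither do the last 2, while any other pair shares 1. The median log2 ratios were 0.016 (interval -0.039 to 0.071), 0.018 (up to 0.036), 0.033 (-0.027 to 0.093) and 0.062 (0.017 to 0.11), beside -0.025, 0.0034, -0.066 and -0.037 over all genes. The 12 genes given in full below are joined by 17 others that passed, from 22.4 CPM (Socs3) to 925 CPM (Jund). The 6 genes below the filter, Dusp2, Dusp6, Egr3, Fosl1, Nr4a3 and Per1, lay between 0.72 and 19.6 CPM.

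The AP-1 genes varied little. Fos stood at 1556 CPM in control cells, 1550.0 with doxorubicin, 1747 with doxorubicin+AMH and 1621 with AMH. Fosb, a second Fos family subunit, stood at 714 CPM in control cells, 681 with doxorubicin, 714 with doxorubicin+AMH and 600.0 with AMH. Jun stood at 1109.8 CPM in control cells, 1200.0 with doxorubicin, 1174 with doxorubicin+AMH and 1084 with AMH. The doxorubicin over control ratios of these were 1.00, 0.95 and 1.08, and the AMH over control ratios 1.04, 0.84 and 0.98. Junb stood at 349 CPM in control cells, 352 with doxorubicin, 385 with doxorubicin+AMH and 350.0 with AMH. Atf3 stood at 60.0 CPM in control cells, 57.9 with doxorubicin, 50.04 with doxorubicin+AMH and 60.3 with AMH. Neither separated the libraries by treatment: the doxorubicin over control ratios were 1.01 and 0.97, and for doxorubicin+AMH over AMH they were 1.10 and 0.83.

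Egr1 was the member with the lowest doxorubicin over control ratio in this class. It stood at 831 CPM in control cells, 688 with doxorubicin, 728 with doxorubicin+AMH and 719 with AMH, a ratio of 0.83 (interval 0.82 to 0.84), and all 3 treated libraries lay under control. In the contrast that shares no library with it, doxorubicin+AMH over AMH, the Egr1 ratio was 1.01 (interval 1.00 to 1.03). Nr4a1, a nuclear receptor induced by luteinising hormone, stood at 213 CPM in control cells, 219 with doxorubicin, 214 with doxorubicin+AMH and 234 with AMH. Klf4 stood at 166 CPM in control cells, 159 with doxorubicin, 148 with doxorubicin+AMH and 162 with AMH. Both kept within a fold of 0.91 to 1.10 over the 4 contrasts.

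Among the feedback and arrest genes, Ier2 stood at 208 CPM in control cells, 212 with doxorubicin, 196 with doxorubicin+AMH and 162 with AMH, with the AMH library lowest (AMH over control 0.78 (interval 0.76 to 0.80)). Dusp1, which inactivates MAP kinases, stood at 54.7 CPM in control cells, 53.8 with doxorubicin, 51.7 with doxorubicin+AMH and 58.7 with AMH. Zfp36, which speeds the decay of early response mRNAs, stood at 64.0 CPM in control cells, 60.7 with doxorubicin, 66.2 with doxorubicin+AMH and 65.5 with AMH. For both, the 4 libraries differed by no more than 1.14-fold in any contrast. Btg2, an antiproliferative gene that p53 can induce, stood at 175 CPM in control cells, 199 with doxorubicin, 154 with doxorubicin+AMH and 149 with AMH. Its ratio was 1.14 (interval 1.11 to 1.17) for doxorubicin over control and 1.04 (interval 1.01 to 1.07) for doxorubicin+AMH over AMH. The doxorubicin library was the highest for Btg2, and doxorubicin+AMH over doxorubicin was 0.77 (interval 0.75 to 0.79), the lowest of any member in that contrast. At the other end of it stood Gadd45b, a stress gene of the Gadd45 family, at 1.498 (interval 1.44 to 1.55), just under 1.5-fold. The widest exact Poisson interval of these 12 genes spanned 3.51% of the level to either side, with at least 3147 UMIs behind each value.

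Stroma-like cells also showed little difference between libraries. Of the 32 genes that passed (Dusp2, Dusp6 and Fosl1 did not, at 0.73 to 10.9 CPM), none was past 1.5-fold for doxorubicin over control (0.56% of all genes higher, 0.227% lower) or doxorubicin+AMH over AMH (0.181% and 0.665%). None was past it for doxorubicin+AMH over doxorubicin (0.499% and 1.97%). Egr1 stood at 2816 CPM in control cells, 2541 with doxorubicin, 2537 with doxorubicin+AMH and 2399.9 with AMH and Jun at 2987 CPM in control cells, 3066 with doxorubicin, 2925 with doxorubicin+AMH and 2765 with AMH. Both were lowest in the AMH library. For AMH over control, 1 member was higher (0.408% of all genes) and none lower (1.1%). This was Gadd45g, a relative of Gadd45b, at 61.0 CPM in control cells, 59.8 with doxorubicin, 80.5 with doxorubicin+AMH and 96.0 with AMH. Its AMH over control ratio was 1.57 (interval 1.46 to 1.69), and both AMH libraries lay above both others. Without clustering, by a gate on markers in each cell, no member was past 1.5-fold higher in this contrast (0.568% of all genes). The median log2 ratio over the members was -0.035 for doxorubicin over control (interval -0.059 to -0.011, beside -0.018 over all genes) and -0.12 for AMH over control (-0.14 to -0.095, beside -0.079).

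The level differed more between stroma-like clusters than between libraries. Cluster numbers name groups of cells, and those described here were picked out after their values were seen. Cluster 2, led by Penk, Frem1 and Pdgfra, held 25244 to 27404 CPM of the set. Cluster 3 held 18878 CPM in control cells, 18908 with doxorubicin, 17019 with doxorubicin+AMH and 15925 with AMH. Cluster 1, with Lrat and Dcn among its leading genes, held 26410.3 CPM in control cells, 27144 with doxorubicin, 22618 with doxorubicin+AMH and 20225 with AMH, so both AMH libraries were the lower pair. Within cluster 1 the median log2 ratio for AMH over control was -0.35 (interval -0.49 to -0.21), beside -0.088 over all genes. Fosb, Nfkbiz, Per1, Socs3 and Zfp36 were past 1.5-fold lower there, 5 of 32 members against 3.4% of all genes, and Gadd45g was higher (1.55%). Per1 was under 20 CPM in AMH, and without it 4 were lower. In the contrast without shared libraries, doxorubicin+AMH over doxorubicin, the median was -0.22 and the members past 1.5-fold were Dusp1 and Maff, both lower (3.03%), with none higher (1.31%). Maff was under 20 CPM in doxorubicin+AMH, and without it 1 was lower.

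**Figure D4:**
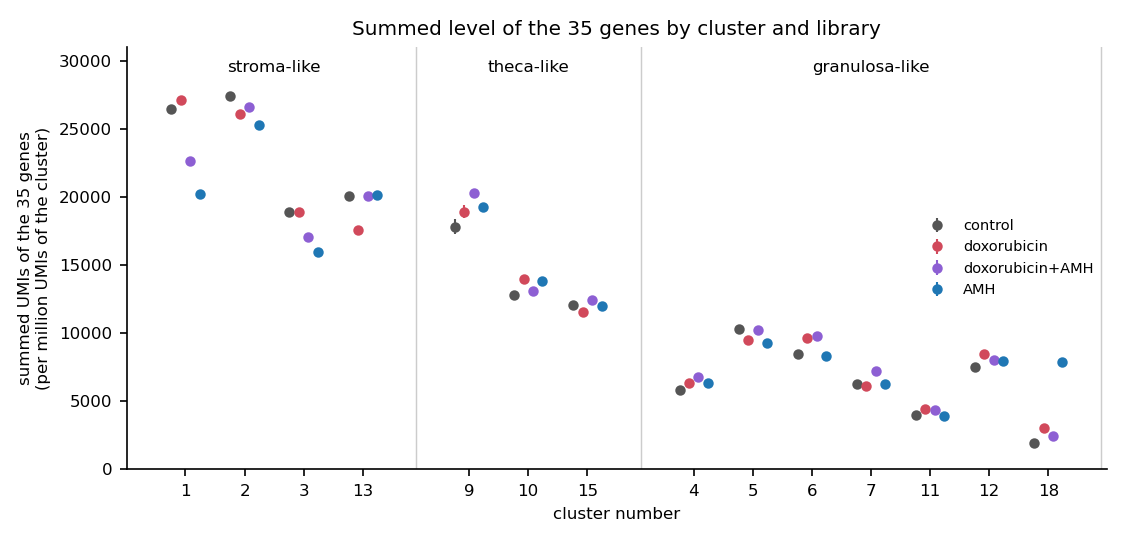
Summed level of the 35 genes in CPM (vertical axis) by cluster (horizontal axis, grouped by class), 1 point per library with exact 95% Poisson intervals. Stroma-like clusters 1 and 2 reach 20225 to 27404 CPM, theca-like cluster 9 lies at 17794 to 20246 CPM in all 4 libraries above clusters 10 and 15, and granulosa-like cluster 18 has 1 high point, the AMH library, at 7851 CPM.

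Cluster 13, stroma-like cells led by Clec3b (301, 204, 136 and 267 cells in control, doxorubicin, doxorubicin+AMH and AMH), was a stroma-like cluster in which the doxorubicin library stood apart. Fos stood there at 3139 CPM in control cells, 1965 with doxorubicin, 3761 with doxorubicin+AMH and 3097 with AMH. Junb stood at 1509 CPM in control cells, 882 with doxorubicin, 1357 with doxorubicin+AMH and 1234 with AMH and Egr1 at 2641 CPM in control cells, 1698 with doxorubicin, 2633 with doxorubicin+AMH and 2470.2 with AMH. For all 3 the doxorubicin library was the low one, and the other 3 libraries lay above it. Btg2 was the opposite, at 696 CPM in control cells, 1304 with doxorubicin, 666 with doxorubicin+AMH and 790.3 with AMH. The doxorubicin over control ratios were 0.63 (interval 0.61 to 0.65) for Fos, 0.58 (interval 0.56 to 0.61) for Junb, 0.64 (interval 0.62 to 0.66) for Egr1 and 1.87 (interval 1.78 to 1.97) for Btg2. Members past 1.5-fold lower were Egr1, Fos, Ier2, Ier3, Junb and Per1, 6 of 32 beside 10.6% of all genes. Members past it higher were Btg2, Egr2, Fosl2, Maff and Nr4a3, 5 of 32 beside 6.43% of all genes. For doxorubicin+AMH over doxorubicin, a contrast that shares the doxorubicin library, 6 members were higher (11% of all genes) and 7 lower (9.3%), among them Fos at 1.91, Btg2 at 0.51 and Maff at 0.41. For doxorubicin+AMH over AMH, which shares no library with doxorubicin over control, Fos was at 1.21 and Btg2 at 0.84, and 2 members were higher (5.36%) and 2 lower (3.9%). In the same cells the 10 p53 targets on a separate list summed to 445 CPM in control cells, 3559.6 with doxorubicin, 640.3 with doxorubicin+AMH and 465 with AMH, and Cdkn1a, the p21 cell cycle inhibitor, stood at 134 CPM in control cells, 1608 with doxorubicin, 286 with doxorubicin+AMH and 161 with AMH. The part of the p53 response in the values of the members was not tested.

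In theca-like cells the libraries with AMH stood apart from those without. Of the 35 genes, 32 passed the filter (Dusp2, Dusp6 and Fosl1 lay at 0.70 to 13.9 CPM). For AMH over control, 14 of the 32 were past 1.5-fold higher, 43.8%, against 6.91% of all genes, and none was lower, against 9.98%. For doxorubicin+AMH over doxorubicin, which shares no library with it, 11 of 32 were higher against 6.38% of all genes, and none lower against 9.67%. Ier5 in control and Per1 in doxorubicin were under 20 CPM, and without them 13 and 10 were higher. The median log2 ratios were 0.46 (interval 0.42 to 0.50) and 0.41 (0.34 to 0.47), beside -0.076 and -0.055 over all genes. Depth and mitochondrial share moved with AMH in this class: median UMIs per cell were 20574 in control and 24381 in doxorubicin against 13850 and 12452.5 in the AMH libraries, with mitochondrial shares of 8.09% and 7.55% against 5.50% and 5.64%. With a mitochondrial limit of 10%, 10 members were higher for AMH over control (6.35% of all genes), without Btg2, Klf4, Nr4a1 and Zfp36. For doxorubicin+AMH over doxorubicin 10 were higher (5.6%), without Gadd45b. The part of depth and mitochondrial share in these ratios was not tested beyond this limit and the matched-depth counts above. By the gate on markers in each cell, 7 of 31 members were past 1.5-fold higher for AMH over control (5.55% of all genes).

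Atf3, the stress-induced repressor, had the highest AMH over control ratio among them. It stood at 134 CPM in control cells, 149.6 with doxorubicin, 298 with doxorubicin+AMH and 339 with AMH, and both AMH libraries lay above both others. The ratio was 2.54 (interval 2.43 to 2.65) for AMH over control and 1.99 (interval 1.90 to 2.09) for doxorubicin+AMH over doxorubicin. Maff, a small Maf protein that dimerises with basic leucine zipper factors, stood at 21.0 CPM in control cells, 25.3 with doxorubicin, 43.0 with doxorubicin+AMH and 49.6 with AMH, with ratios of 2.37 (interval 2.12 to 2.64) and 1.70 (interval 1.51 to 1.91) for the same contrasts. Jund, the Jun subunit most present in resting cells, stood at 664 CPM in control cells, 728 with doxorubicin, 1242 with doxorubicin+AMH and 1095 with AMH, again without overlap between the pairs of libraries (ratios 1.65 and 1.71). Fos and Egr1 were higher in both AMH libraries too, without passing 1.5-fold: Fos stood at 2296 CPM in control cells, 2546 with doxorubicin, 3038 with doxorubicin+AMH and 3073 with AMH, and Egr1 at 1607 CPM in control cells, 1681 with doxorubicin, 1842 with doxorubicin+AMH and 1989 with AMH. With the same cluster weights in all libraries, given further down, both turned lower for doxorubicin+AMH over doxorubicin.

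Of the Egr and Nr4a genes, Nr4a3 stood at 58.0 CPM in control cells, 59.1 with doxorubicin, 88.2 with doxorubicin+AMH and 129.9 with AMH, with an AMH over control ratio of 2.24 (interval 2.10 to 2.39). Nr4a1, which drives steroidogenic genes in theca cells, stood at 475 CPM in control cells, 466 with doxorubicin, 758 with doxorubicin+AMH and 750.4 with AMH. Its ratios were 1.58 and 1.63. Egr3 stood at 26.7 CPM in control cells, 24.4 with doxorubicin, 45.3 with doxorubicin+AMH and 46.5 with AMH, with a doxorubicin+AMH over doxorubicin ratio of 1.85 (interval 1.65 to 2.09). For each of the 3 the libraries with AMH did not overlap the libraries without, and the share of all genes that part in this way was not counted. Nr4a2 was past 1.5-fold for doxorubicin+AMH over doxorubicin (1.57), and Klf2 and Klf4 for AMH over control (1.70 and 1.54).

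Among feedback genes, Ier3, an apoptosis modulator that NF-kappaB induces, stood at 76.2 CPM in control cells, 78.5 with doxorubicin, 178 with doxorubicin+AMH and 167 with AMH. Its ratios were 2.19 (interval 2.07 to 2.32) and 2.27 (interval 2.14 to 2.42). Socs3 stood at 89.1 CPM in control cells, 114 with doxorubicin, 261 with doxorubicin+AMH and 163 with AMH, with ratios of 1.83 for AMH over control and 2.30 (interval 2.18 to 2.42) for doxorubicin+AMH over doxorubicin. It was also the only member past 1.5-fold for doxorubicin+AMH over AMH, at 1.60 (interval 1.53 to 1.68), against 0.575% of all genes higher, with no member lower (0.415%). With each cell weighted equally Socs3 was not past 1.5-fold in this contrast. Zfp36 stood at 202 CPM in control cells, 228 with doxorubicin, 377 with doxorubicin+AMH and 323 with AMH, and Gadd45b, Ier5, Btg2 and Per1 completed the members past 1.5-fold, with AMH over control ratios of 1.93, 2.04, 1.51 and 1.15, the last of which passed for doxorubicin+AMH over doxorubicin (1.53). Gadd45g was the member with the lowest AMH over control ratio, at 106 CPM in control cells, 115 with doxorubicin, 82.7 with doxorubicin+AMH and 74.5 with AMH. No member was past 1.5-fold for doxorubicin over control (0.351% of all genes in each direction), where the median log2 ratio was 0.11 (interval 0.054 to 0.16), beside -0.0058 over all genes.

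Different clusters made up most of the theca-like class in the libraries with and without AMH, and the set's level differed between these clusters. Cluster 10, with high Cyp17a1, the androgen-forming enzyme, held 79.6% of theca-like cells in control and 73.1% in doxorubicin, but 8.2% in doxorubicin+AMH and 6.5% in AMH. Cluster 9 held 4.1% and 4.2% in the libraries without AMH, which are 34 and 25 cells, and 75.1% and 80.8% in the libraries with it, which are 549 and 724 cells. Cyp17a1 in the whole class stood at 1905 CPM in control cells, 1842 with doxorubicin, 317 with doxorubicin+AMH and 138 with AMH. The 8 theca markers summed to 13757 CPM in control cells, 13311 with doxorubicin, 4929 with doxorubicin+AMH and 4705 with AMH, and the 7 stroma markers to 377, 420.3, 945 and 915 in that order. No marker of either list was at 0 in any library. Stroma-like cells themselves held 6719.6 to 8610.2 CPM of them. The summed level of the set in cluster 9 was 17794 CPM in control cells, 18916 with doxorubicin, 20246 with doxorubicin+AMH and 19274 with AMH. In cluster 10 it was 12773 CPM in control cells, 13984 with doxorubicin, 13096 with doxorubicin+AMH and 13814 with AMH, below cluster 9 in every library. Cluster 15, the rest of the class, with 114 to 136 cells per library, held 12066 CPM in control cells, 11563 with doxorubicin, 12410.4 with doxorubicin+AMH and 11976 with AMH.

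Giving the 3 clusters the same weights in every library, an alternative chosen after seeing the data, lowered the medians to 0.11 for AMH over control and 0.093 for doxorubicin+AMH over doxorubicin, beside -0.077 and -0.11 over all genes with these weights. It left 3 of 32 members past 1.5-fold higher in the first contrast (Nr4a3, Egr3 and Dusp1), against 3.04% of all genes, and 2 in the second (Ier3 and Socs3), against 1.79%, with none lower in either (7.6% and 6.94% of all genes). Klf4 and Socs3 for AMH over control and Nr4a1 and Per1 for doxorubicin+AMH over doxorubicin then had log2 ratios of -0.16, -0.080, -0.018 and -0.22, so their direction was not kept with these weights. Nor was that of Fos and Egr1 for doxorubicin+AMH over doxorubicin, which went from 0.25 to -0.061 and from 0.13 to -0.25. In all, 11 of the 31 members that were above a ratio of 1 for AMH over control fell below it with the same weights, and 12 of 30 for doxorubicin+AMH over doxorubicin, while Gadd45g, below 1 as found, lay above it in both, at 0.38 and 0.55. These weights lean on few cells, 34 and 25 of cluster 9 in control and doxorubicin and 60 and 58 of cluster 10 in doxorubicin+AMH and AMH, and the values carry no interval. Within single libraries, cluster 9 was past 1.5-fold higher than cluster 10 in 10 of 32 members in AMH (8.92% of all genes) and 19 of 32 in doxorubicin+AMH (11.5%), and 1 was lower in each (8.53% and 9.23%), Gadd45g. Atf3, Klf2 and Klf4 were higher in cluster 9 in all 4 libraries (3.32% of all genes). In cluster 15 alone, Gadd45b, Maff, Nfkbia, Nfkbiz, Nr4a3 and Socs3 were past 1.5-fold higher for AMH over control, 6 of 31 against 3.15% of all genes. There were 7 of 31 for doxorubicin+AMH over doxorubicin, Atf3, Egr3, Gadd45b, Ier3, Maff, Nr4a2 and Nr4a3, against 3.77%, and none was lower in either contrast (2.56% and 2.2%). Maff was under 20 CPM in doxorubicin, and without it 6 were higher in this contrast. The medians in cluster 15 were 0.043 (interval -0.25 to 0.34) and 0.26 (0.15 to 0.36).

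**Figure D5:**
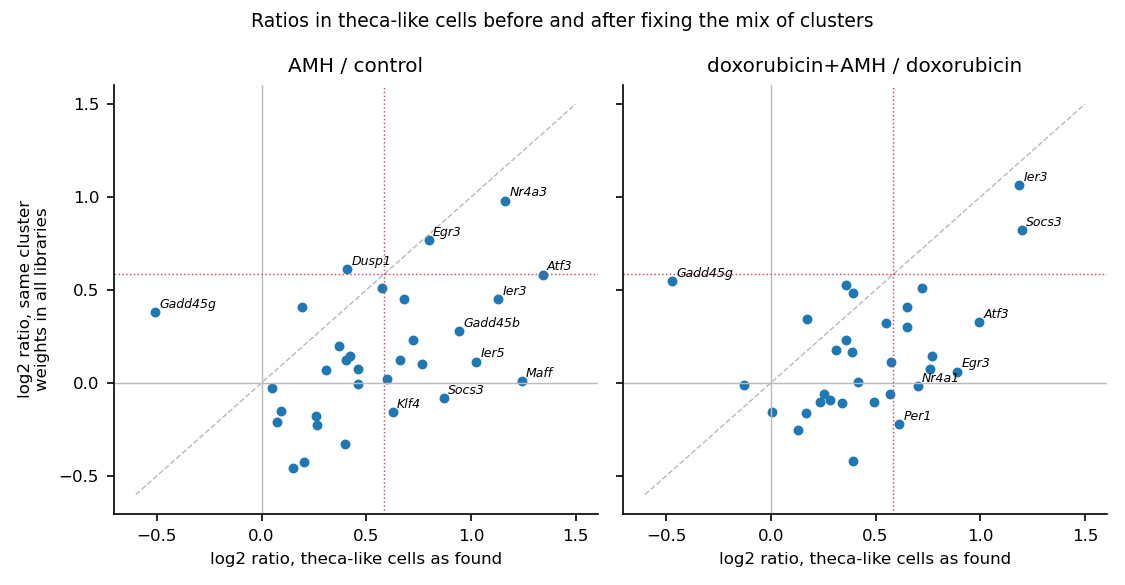
Log2 ratio of each member in theca-like cells as found (horizontal axis) against the log2 ratio with the same cluster weights in all libraries (vertical axis), for AMH over control and doxorubicin+AMH over doxorubicin; each point is 1 of the 32 genes, dotted lines mark 1.5-fold and the dashed line equality. Points lie mostly right of 0 and below the dashed line: medians are 0.46 and 0.41 as found, and 0.11 and 0.093 with the same weights.

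Mural smooth muscle-like cells showed no member past 1.5-fold in any contrast, of 31 that passed (Dusp2, Dusp6, Fosl1 and Maff did not). The share of all genes past it in this class was 0.364% higher and 1.68% lower for doxorubicin over control and 0.379% and 1.23% for AMH over control. In the other 2 contrasts it was 0.546% and 1.53% for doxorubicin+AMH over AMH and 0.379% and 1.17% for doxorubicin+AMH over doxorubicin.

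In macrophage-like cells, the tissue phagocytes, the median member was lower in both libraries with doxorubicin than in their partners. The median log2 ratio was -0.30 for doxorubicin over control (interval -0.44 to -0.16) and -0.34 for doxorubicin+AMH over AMH (-0.45 to -0.22), beside 0.0087 and -0.021 over all genes. Past 1.5-fold, 5 of 33 members were lower in the first contrast (7.51% of all genes) and 8 in the second (9.64%), with none higher (6.62% and 5%). Without members under 20 CPM in the lower library (Maff in both contrasts, Socs3 in the first and Egr3 in the second), 3 and 6 were lower. The 3 members lower in both were Gadd45g, Maff and Zfp36l1. Zfp36l1, a relative of Zfp36, stood at 386 CPM in control cells, 252 with doxorubicin, 232 with doxorubicin+AMH and 413 with AMH, with ratios of 0.65 (interval 0.55 to 0.77) and 0.56 (interval 0.48 to 0.65). Gadd45g stood at 42.2 CPM in control cells, 20.3 with doxorubicin, 37.7 with doxorubicin+AMH and 69.8 with AMH, with ratios of 0.48 (interval 0.25 to 0.85) and 0.54 (interval 0.37 to 0.78). Maff stood at 31.1 CPM in control cells, 17.6 with doxorubicin, 11.3 with doxorubicin+AMH and 24.5 with AMH, and its interval for doxorubicin over control, 0.28 to 1.06, included 1. The class held 90 to 187 cells per library, so as few as 12 UMIs stood behind a value.

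In blood endothelial-like cells (61 to 169 per library), Egr1 and Fosl2 were past 1.5-fold higher in both contrasts of the pair for AMH. Median depth in this class was 10162 UMIs per cell in control, 9006.5 with doxorubicin, 9797 with doxorubicin+AMH and 17887.5 with AMH. The part of depth in these ratios was not tested. Egr1 stood at 548 CPM in control cells, 518 with doxorubicin, 781 with doxorubicin+AMH and 856 with AMH, with ratios of 1.56 (interval 1.47 to 1.66) for AMH over control and 1.51 (interval 1.38 to 1.65) for doxorubicin+AMH over doxorubicin. Fosl2, a Fos-related subunit, stood at 104 CPM in control cells, 132 with doxorubicin, 203 with doxorubicin+AMH and 176 with AMH, with ratios of 1.68 (interval 1.47 to 1.94) and 1.54 (interval 1.29 to 1.84). In all, 5 of 30 members were higher for AMH over control (4.81% of all genes) and 2 lower (7.81%), and 3 were higher (3.64%) and none lower (5.17%) for doxorubicin+AMH over doxorubicin. Dusp2 was under 20 CPM in AMH, and without it 1 was lower for AMH over control.

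Other genes of the same response, a list of names outside the set, gave similar counts. In theca-like cells 26 passed the filter, of which 12 were past 1.5-fold higher for AMH over control (6.91% of all genes) and 1, Tob1, lower (9.98%), and 11 were higher (6.38%) and 2 lower (9.67%) for doxorubicin+AMH over doxorubicin. None of them was past it in granulosa-like or stroma-like cells for doxorubicin over control (24 and 29 passed). Of the regulators upstream of these genes, 19 passed in theca-like cells, and Nfkb1 was higher and Atf2 lower for both AMH over control and doxorubicin+AMH over doxorubicin. Of all genes, 6.91% were past 1.5-fold higher and 9.98% lower in the former contrast, and 6.38% and 9.67% in the latter. Heat shock genes, a second sign of acute stress, set the AMH library apart in several classes. Hspa1a stood in theca-like cells at 114 CPM in control cells, 129 with doxorubicin, 123 with doxorubicin+AMH and 347 with AMH, and Hspa1b at 96.1 CPM in control cells, 95.8 with doxorubicin, 84.4 with doxorubicin+AMH and 269.6 with AMH. The AMH library was the high one for both. For AMH over control, 6 of 11 heat shock genes were past 1.5-fold higher in theca-like cells (6.91% of all genes), 4 of 11 in stroma-like (0.408%) and 5 of 10 in macrophage-like cells (5.28%). There were 3 of 11 in mural smooth muscle-like (0.379%) and 2 of 11 in granulosa-like cells (0.786%). None of the 11 was higher for doxorubicin+AMH over doxorubicin in theca-like, stroma-like or granulosa-like cells. The part of handling in these values was not tested. Of the p53 targets, for doxorubicin over control, 7 of 8 were past 1.5-fold higher in stroma-like (0.56% of all genes), 4 of 6 in theca-like (0.351%), 6 of 7 in macrophage-like (6.62%) and 2 of 5 in granulosa-like cells (0.0907%). The stroma-like clusters differed in this. Over the libraries the p53 list summed to 367 to 457 CPM in cluster 1, 360 to 466 in cluster 2 and 323 to 404 in cluster 3. In cluster 13 it ran from 445 to 3560 CPM, highest in doxorubicin. Plk2 stands on both the early response and the p53 list.

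Cluster 18, granulosa-like cells picked out after their values were seen, held little of the set except in the AMH library. The sums were 1939 CPM in control cells, 3043 with doxorubicin, 2461 with doxorubicin+AMH and 7851 with AMH, in cells of 3708, 2492, 2258.5 and 7795 median UMIs in the same order. Of the members, 26 passed the filter there, 6 of them at under 20 CPM in control and so only through other libraries. All 26 were past 1.5-fold higher for AMH over control, beside 22.9% of all genes, and none was lower (11%). Cluster 11, granulosa-like cells of low depth, held 3999 CPM in control cells, 4396 with doxorubicin, 4358 with doxorubicin+AMH and 3932 with AMH, without a high library. Cluster 26, macrophage-like cells of low depth, held 4870.4 CPM in control cells, 5481 with doxorubicin, 5978 with doxorubicin+AMH and 14769 with AMH, with the AMH library again the high one, at 1439 median UMIs against 1409.5 to 1618 in the other libraries. In cluster 18 the deepest cells were those of the AMH library too, and the part of depth in these values was not tested.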

How the data were processed

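Ovarian cells of 4 libraries (control, doxorubicin, doxorubicin+AMH and AMH; 1 per group) were measured by droplet 3′ RNA sequencing with a target of 10000 cells per group. The deposited matrices hold whole UMI counts per gene and cell, integers per the file headers, which name Cell Ranger 7.0.0. The build mm10, R 4.2.0 and Seurat 4.1.0 are named in the submitters' processing notes; the gene annotation and the treatment of intronic reads are not given in the sources used here. Libraries held 9202, 7141, 7818 and 9478 cells in the order above.

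Cells under 1000 UMIs or over 20% mitochondrial UMIs were dropped. Doublet scores came from Scrublet (scanpy 1.11.5); since its automatic threshold marked 0, 1, 0 and 0 cells, the top scores at 0.8% per 1000 cells were taken out (632, 366, 437 and 648 cells). The 28440 cells left were clustered jointly (2000 variable genes without the lists studied, 30 principal components, 20 neighbours, Leiden resolution 1, leidenalg 0.10.2). A cluster was named "X-like" when at least 3 markers and 50% of a list exceeded the median cluster by 1 log2 unit with a UMI in 10% of its cells, and was left unnamed when 3 or more lists qualified, when its leading genes went against the name, or when its depth was under 33.3% of its library with no marker among the leading genes; these thresholds were set after the clusters were seen. UMIs were summed per class and library and given as CPM, so rising shares of a few genes lower all others. Ratios carry exact conditional Clopper-Pearson intervals and levels exact Poisson intervals (95%, scipy 1.17.1), for counting error only; medians are over the members that averaged 20 CPM or more, and a median's interval is the counting interval of the members at the median. The ratio code was tested on simulated counts. With 1 library per group nothing measures the spread between animals or digestions.

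Named in full were 12 members in granulosa-like cells, the 4 members furthest past 1.5-fold in each direction in granulosa-, stroma- and theca-like cells, and elsewhere members past it in both contrasts of a pair that shares no library; values of single clusters and of classes compared within a library were picked after they were seen. The members and lists (other early response genes, upstream regulators, heat shock genes, p53 targets) were chosen with earlier results of these data known. Alternatives covered scaling, filter, pseudocount, mitochondrial limit, doublets, cell weighting and a marker gate, and, chosen after seeing the data, the same cluster weights and the removal of clusters 11, 18 and 31.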

Additional observations from a re-analysis of the deposited data

Results flagged for a closer look

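Classes went in opposite directions in 3 of the 4 contrasts, counting the 6 classes with at least 50 cells per library and the medians whose counting interval excludes 0. These differences were not tested, since each group is 1 library. For doxorubicin over control, the median log2 ratio of the members was -0.30 in macrophage-like and -0.035 in stroma-like cells, and 0.11 in theca-like cells. For AMH over control it was -0.12 in stroma-like and -0.052 in mural smooth muscle-like cells, and 0.27 in blood endothelial-like and 0.46 in theca-like cells. For doxorubicin+AMH over doxorubicin it was -0.070 in stroma-like cells, and 0.062 in granulosa-like, 0.19 in blood endothelial-like and 0.41 in theca-like cells. The stroma-like median of this last contrast was 0.0067 with the marker gate, so its direction was not kept there. Over all genes the stroma-like medians were -0.018 (doxorubicin over control), -0.079 (AMH over control) and -0.022 (doxorubicin+AMH over doxorubicin). With median-of-ratios scaling the stroma-like medians of the members were -0.0093, -0.038 and -0.045 in the same order. For doxorubicin+AMH over AMH the macrophage-like median was -0.34, and the counting intervals of the other 5 classes include 0. With the same cluster weights in all libraries the theca-like medians were 0.016 for doxorubicin over control (beside 0.036 over all genes), 0.11 for AMH over control and 0.093 for doxorubicin+AMH over doxorubicin, so the first lay close to 0.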

How the results depend on the processing

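Of 100 medians under the alternatives, 78 stayed within the counting interval of the member at the median and 22 did not, 84 of 100 counts past 1.5-fold stayed within 1.5 times, and of 215 ratios of the members past 1.5-fold as found 122 stayed, 89 were outside their interval and 4 changed direction; with the same cluster weights, members short of 1.5-fold turned too, as counted above for theca-like cells; the cause was not tested. With the pseudocount of 5 CPM every median stayed within its interval and every count within 1.5 times, though Per1 was no longer past 1.5-fold in theca-like cells for doxorubicin+AMH over doxorubicin (10 members in place of 11); the removal of clusters 11, 18 and 31, run for granulosa-like cells only, likewise moved no median or count of that class. With the same cluster weights in all libraries, medians became 0.11 (AMH over control), 0.093 (doxorubicin+AMH over doxorubicin) and 0.016 (doxorubicin over control) in theca-like cells, 0.088 for doxorubicin+AMH over AMH in granulosa-like and -0.11 for doxorubicin+AMH over doxorubicin in stroma-like cells. Counts in theca-like cells became 3, 2 (doxorubicin+AMH over doxorubicin) and 2 (doxorubicin+AMH over AMH), and 1 member passed in granulosa-like cells for doxorubicin+AMH over doxorubicin. Klf4 and Socs3 (AMH over control) turned to -0.16 and -0.080, and Nr4a1 and Per1 (doxorubicin+AMH over doxorubicin) to -0.018 and -0.22. With the marker gate, theca-like medians were 0.38, 0.31 (doxorubicin+AMH over doxorubicin) and 0.069 (doxorubicin+AMH over AMH), with 7 members past 1.5-fold for AMH over control, the granulosa-like AMH over control median 0.11, and the stroma-like ones -0.091 and 0.0067 (doxorubicin+AMH over doxorubicin), with 0 members past 1.5-fold for AMH over control. Weighting cells equally gave AMH over control medians of -0.029 (granulosa-like), -0.16 (stroma-like) and 0.58 (theca-like), -0.064 for doxorubicin over control in stroma-like and -0.058 for doxorubicin+AMH over AMH in theca-like cells. Median-of-ratios scaling gave 0.10, -0.038 and 0.54 for AMH over control in the same order and -0.0093 for doxorubicin over control in stroma-like cells. With a mitochondrial limit of 10%, theca-like medians were 0.40 (AMH over control) and 0.34 (doxorubicin+AMH over doxorubicin). For doxorubicin+AMH over doxorubicin, 1 granulosa-like member passed 1.5-fold under that scaling, the gate, the mitochondrial limit and a doubled doublet rate, and 1 stroma-like member under the scaling and that rate. Of all genes, 1.33%, 1.08% and 1.06% were higher in granulosa-like cells under the scaling, the mitochondrial limit and that rate. In stroma-like cells 0.529% and 0.499% were higher under the scaling and that rate. Without a filter on low CPM, 3 (AMH over control) and 2 (doxorubicin over control) members passed in stroma-like cells. Of all genes, 11.2% were then higher and 18.1% lower for AMH over control, and 11.6% and 19.3% for doxorubicin over control. In theca-like cells, 2 passed for doxorubicin+AMH over AMH without the filter and with the doubled doublet rate. Of all genes, 12.7% were higher and 19.4% lower in that contrast without the filter, and 0.528% and 0.464% with that rate. With cells weighted equally Socs3 no longer passed there and Nr4a3 passed, lower, as it also did with the doubled doublet rate and the same cluster weights. No paired analysis was possible because the groups share only replicate number 1, and with 1 library per group no replicate could be left out. Depth limits the classes of few cells: in macrophage-like cells a value can rest on 12 UMIs.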
